A study of Mus musculus with 6 samples.

Results

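The FoxO group described here holds 10 genes in sorted mouse haematopoietic stem cells (HSCs), taken by gene name: the transcription factor genes Foxo1, Foxo3 and Foxo4, and 7 genes tied to FoxO activity and to the resting state of cells, Txnip, Pik3ip1, Sesn1, Sesn3, Btg1, Ccng2 and Tsc22d3. All 10 were found among the 18368 genes of the count table, and all 10 passed the filter on low counts that left 14443 genes for testing. RNA was sequenced from about 2000 HSCs of adult bone marrow per library, in 3 libraries from Ramp1 mutant mice, whose genotype the labels write as Ramp-/-, and 3 libraries from Ramp1+/+ mice, called wild type here. Ramp1 encodes the accessory protein that pairs with the receptor Calcrl to bind the neuropeptide CGRP. The labels do not give the allele, the sort gate, the sex or whether each library came from its own animals, and every p-value here reflects how these libraries vary, which may be technical.

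FoxO proteins are forkhead transcription factors that read growth factor signalling. When receptors activate PI3K and AKT, AKT phosphorylates FoxO proteins and they leave the nucleus; when the signal is low they return and switch on genes that slow the cell cycle, restrain PI3K and mTORC1 and limit oxidative stress. In mice FoxO factors are needed to keep HSCs resting and long-lived, with Foxo3 the best known of them there. RNA levels do not show the phosphorylation or the location of these proteins.

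The letters that FoxO factors are known to bind were looked up in the promoters, because the target genes are grouped here by that link. The GTAAACA element, searched on both strands (TGTTTAC on the other), was present in 3 of the 9 members that had a promoter in RefSeq's table (build GRCm38.p6, windows of 300 bases around the start site, 12 windows for these 9 genes). Over all promoters of that length in the table, 1199 of 32851 held it, or 3.65%. The 3 windows are given in the direction of the gene, with the element in capitals, for Txnip at chr3:96557707-96558006 (plus strand), Sesn1 at chr10:41810324-41810623 (plus strand) and Btg1 at chr10:96616751-96617050 (plus strand).
Txnip: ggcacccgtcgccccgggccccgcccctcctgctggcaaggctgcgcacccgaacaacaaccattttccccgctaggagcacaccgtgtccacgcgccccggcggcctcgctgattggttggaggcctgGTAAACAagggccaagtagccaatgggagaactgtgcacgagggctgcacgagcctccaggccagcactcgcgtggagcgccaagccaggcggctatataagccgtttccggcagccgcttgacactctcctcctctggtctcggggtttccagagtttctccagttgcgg
Sesn1: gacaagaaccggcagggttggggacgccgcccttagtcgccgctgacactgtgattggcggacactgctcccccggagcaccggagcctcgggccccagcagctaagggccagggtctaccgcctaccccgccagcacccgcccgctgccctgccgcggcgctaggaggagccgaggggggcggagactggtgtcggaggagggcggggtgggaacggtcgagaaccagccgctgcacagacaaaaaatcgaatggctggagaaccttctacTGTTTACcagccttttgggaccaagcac
Btg1: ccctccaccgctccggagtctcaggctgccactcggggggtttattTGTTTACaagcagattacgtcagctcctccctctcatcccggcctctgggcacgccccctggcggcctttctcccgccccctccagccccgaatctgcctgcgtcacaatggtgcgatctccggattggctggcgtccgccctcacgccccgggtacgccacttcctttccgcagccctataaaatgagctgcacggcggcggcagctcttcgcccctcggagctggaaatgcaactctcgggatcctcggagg
The element begins 121 bases before the start site in Txnip and 204 bases before it in Btg1, and at base 23 after it in Sesn1, whose second window does not hold these letters. The insulin response core CAAAACA, also searched on both strands, was in 6.28% of all promoters and in 1 of the 12 windows. That window is the one of Ccng2, where it begins 16 bases before the start. The cAMP response element TGACGTCA (1.79% of all promoters) and the E-box CACGTG (7.15%), each its own reverse complement, were in 0 of the 12 windows. These matches describe letters only.

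None of the 10 genes differed between Ramp1 mutant and wild-type HSCs beyond the spread between libraries. With edgeR's quasi-likelihood test 0 of 10 passed an adjusted p of 0.05, where 0.0208% of all genes tested did (0.00692% higher and 0.0138% lower in mutant), and each adjusted p was 0.999 after Benjamini-Hochberg adjustment over 14443 genes. At an unadjusted p under 0.05 the members gave 0 of 10 (3.99% of all genes), and DESeq2 on the same counts also called 0 of 10, where 0.284% of all genes passed. In 0 of 10 did the mutant libraries lie wholly above or below the wild-type libraries; 10.3% of all genes had groups that did not overlap. 7 members had a fitted fold change above 0 in mutant cells and 3 below it, where 50.1% of all genes were above 0, and the members' median log2 fold change was 0.09 beside 0.00 for all genes tested. The targeted gene itself separated the groups: Ramp1 had 3.53, 2.65 and 1.35 FPKM in mutant libraries, against 91.4, 88.3 and 91.0 FPKM in wild-type libraries.

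**Figure D1:**
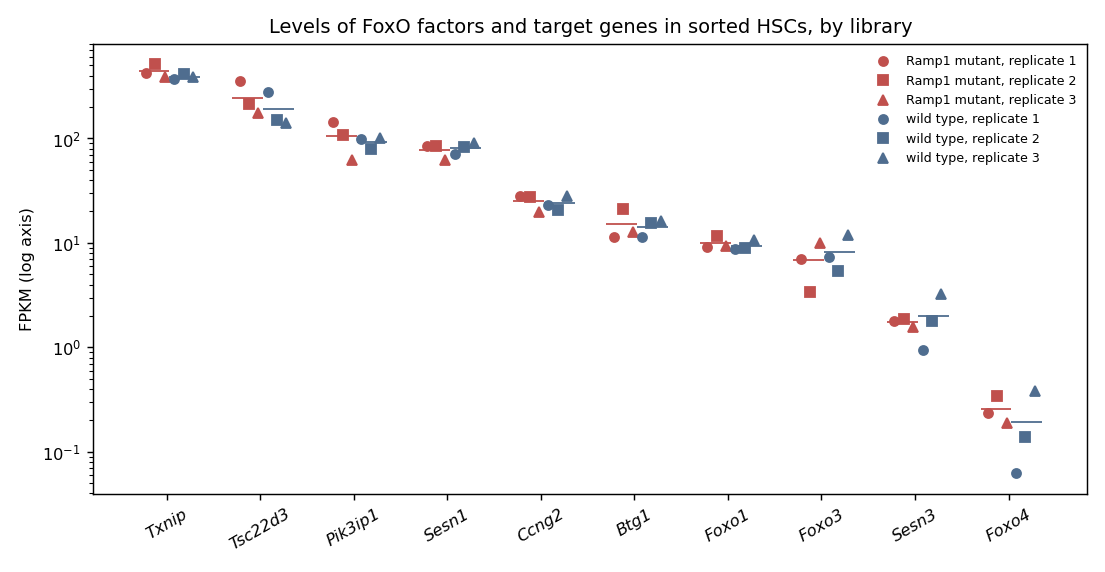
Level of each gene in FPKM (reads scaled by gene length and library total, log axis) in the 3 Ramp1 mutant libraries (red) and the 3 wild-type libraries (blue), with marker shapes for replicate numbers and lines for group means. Levels run down from Txnip, at 371 to 511 FPKM, to Foxo4, at 0.0624 to 0.379 FPKM, and the red and blue points overlap for every gene.

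The 3 factor genes were far less abundant than most of their targets. Over all 6 libraries Txnip averaged 417 FPKM, Tsc22d3 218, Pik3ip1 98.8, Sesn1 79.4, Ccng2 24.5 and Btg1 14.8 FPKM. Foxo1 averaged 9.73 FPKM, Foxo3 7.48, Sesn3 1.87 and Foxo4 0.225 FPKM. Since FPKM is scaled by gene length, these levels can be set against each other: Txnip stood at percentile 99.4 of the genes in the count table, Foxo1 at 61.7 and Foxo4 at 20.1. The ranges over 6 libraries did not overlap between the neighbours Txnip and Tsc22d3, Sesn1 and Ccng2, Foxo3 and Sesn3, or Sesn3 and Foxo4. They overlapped between Tsc22d3 and Pik3ip1, Pik3ip1 and Sesn1, Ccng2 and Btg1, Btg1 and Foxo1, and Foxo1 and Foxo3, so the order within those pairs is within the spread.

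Foxo1 (ENSMUSG00000044167, mm10 chromosome 3, 52268337 to 52350109) was among the steadiest members. It had 9.09, 11.7 and 9.33 FPKM in mutant libraries, against 8.70, 8.98 and 10.6 FPKM in wild-type libraries. Mutant replicate 2 was the highest and the groups overlapped. The log2 fold change was 0.09 (SE 0.14), and its 95% interval allows mutant levels between 0.847 and 1.34 times those of wild type.

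Foxo3 (ENSMUSG00000048756, chromosome 10, 42181841 to 42276755), the family member best known in HSC maintenance, varied most among the well-counted members. It had 7.02, 3.36 and 10.04 FPKM in mutant libraries, against 7.26, 5.34 and 11.8 FPKM in wild-type libraries. In each group replicate 2 was the lowest and replicate 3 the highest, and the highest mutant library had 2.98 times the lowest. Counting error on its least counted library, with 616 reads, is 4.03%, while the coefficient of variation was 49.1% in mutant and 41.0% in wild-type libraries. The within-group SD of its log2 CPM (counts scaled to library size) was 0.69, at percentile 85.6 of all genes tested. The log2 fold change of -0.25 (SE 0.40) therefore has a wide interval, from 0.439 to 1.60 times wild type. The direction rests on single libraries: it was 0.08 without mutant replicate 2 and 0.11 without wild-type replicate 3.

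Foxo4 (ENSMUSG00000042903, X chromosome, 101254528 to 101260873) was close to the limit of counting. It had 17, 29 and 15 reads in mutant libraries, against 5, 11 and 28 reads in wild-type libraries. These correspond to 0.236, 0.343 and 0.191 FPKM in mutant and 0.0624, 0.140 and 0.379 FPKM in wild-type cells. The spread in wild type enclosed all mutant values. At this depth its interval ran from 0.457 to 3.69 times wild type, and differences within it were not detectable at this depth. The fourth family member, Foxo6, had at most 4 reads in any library and was not tested.

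Txnip (ENSMUSG00000038393, chromosome 3, 96557957 to 96561883) encodes an alpha-arrestin that binds thioredoxin and lowers glucose uptake. Its levels were 426, 511 and 391 FPKM in mutant libraries, against 371, 417 and 387 FPKM in wild-type libraries. In FPKM wild-type replicate 2 lay above 1 mutant library, mutant replicate 3. Overlap was called on log2 CPM, where it lay above mutant replicates 1 and 3. There it stood at 0.04 from the gene's mean, against 0.01 and -0.07. With 25549 or more reads per library and a within-group SD at percentile 32.2, it had the narrowest interval of the 10 genes: log2 fold change 0.18 (SE 0.12), or 0.936 to 1.37 times wild type. An antisense transcript, Gm15441, overlaps it and had 316 reads in all 6 libraries together; the strand setting of the counting is not given, so reads of the pair may be mixed. The same holds for Pik3ip1 and Gm12592, which had 290 reads.

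Pik3ip1 (ENSMUSG00000034614, chromosome 11, 3330401 to 3342971) encodes a membrane protein that inhibits the catalytic subunit of PI3K and so acts ahead of AKT. It had 144, 109 and 62.1 FPKM in mutant libraries, against 97.9, 79.9 and 100.1 FPKM in wild-type libraries. The mutant group held both the highest and the lowest of the 6 values. Its coefficient of variation was 39.1% in mutant and 12.0% in wild-type libraries, a difference in spread that was not tested. The log2 fold change was 0.18 (SE 0.26, interval 0.747 to 1.71 times wild type); it was 0.44 without mutant replicate 3 (edgeR adjusted p = 0.576, the lowest of any member in any alternative) and -0.10 without mutant replicate 1.

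The sestrins Sesn1 and Sesn3 hold back mTORC1 when nutrients are short or cells are stressed. Sesn1 (ENSMUSG00000038332, chromosome 10, 41810574 to 41908424) had 85.5, 85.6 and 62.2 FPKM in mutant libraries, against 70.3, 82.9 and 90.1 FPKM in wild-type libraries. Mutant replicate 3 was the lowest of the 6. Its log2 fold change of -0.06 (SE 0.15) covers 0.755 to 1.22 times wild type. Sesn3 (ENSMUSG00000032009, chromosome 9, 14276301 to 14326138) was much lower, at 1.81, 1.85 and 1.58 FPKM in mutant libraries, against 0.949, 1.78 and 3.23 FPKM in wild-type libraries. Here the mutant libraries lay close together, inside the wild-type range, and the log2 fold change was -0.18 (SE 0.44); without wild-type replicate 3 it was 0.33. Sesn1 and Foxo3 are neighbours on chromosome 10, with 273 kb between their nearest ends. The Pearson r of their log2 CPM over the 6 libraries was -0.36. The mutant library with the most Foxo3, replicate 3, held the lowest Sesn1 value, but wild-type replicate 3 held the highest value of both genes.

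Btg1, Ccng2 and Tsc22d3 act on proliferation and transcription. Btg1 (ENSMUSG00000036478, chromosome 10, 96617001 to 96622813), an antiproliferative adaptor of the CCR4-NOT deadenylase, had 11.5, 21.2 and 12.7 FPKM in mutant libraries, against 11.4, 15.5 and 16.2 FPKM in wild-type libraries. Replicate 1 was the lowest library of each group. Its log2 fold change was 0.08 (SE 0.25), and -0.25 without mutant replicate 2. Ccng2 (ENSMUSG00000029385, chromosome 5, 93267257 to 93276231), an unconventional cyclin linked to cell cycle arrest, had 27.9, 27.5 and 19.7 FPKM in mutant libraries, against 23.1, 20.7 and 28.1 FPKM in wild-type libraries. The wild-type group held the highest value and mutant replicate 3 the lowest, with a log2 fold change of 0.06 (SE 0.16, interval 0.806 to 1.36 times wild type).

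**Figure D2:**
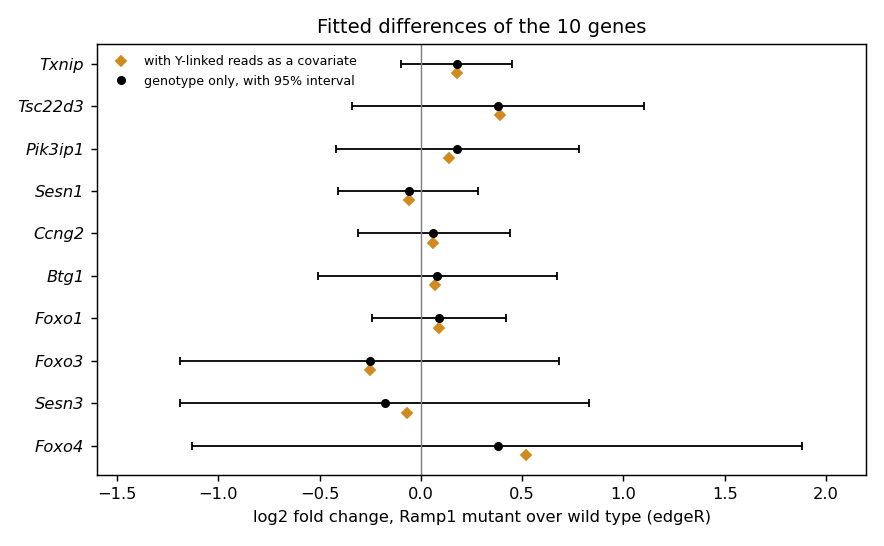
Log2 fold change of each gene, Ramp1 mutant over wild type, from edgeR; black points and bars give the genotype-only fit with its 95% interval, and diamonds the fit that also holds a term for Y-linked reads. Every interval includes 0; the narrowest is that of Txnip (-0.10 to 0.45) and the widest that of Foxo4 (-1.13 to 1.88).

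Tsc22d3 (ENSMUSG00000031431, X chromosome, 140539528 to 140600659), also called GILZ, encodes a leucine zipper protein that glucocorticoids induce and that restrains NF-kB and AP-1. It had 351, 212 and 177 FPKM in mutant libraries, against 277, 150 and 141 FPKM in wild-type libraries. Replicate 1 was the highest of each group, at 1.81 times the mean of the other mutant libraries and 1.90 times the mean of the other wild-type libraries. In both groups replicate 1 was also the library with Y-linked reads, 6137 in mutant and 6527 in wild type against at most 2 in any other library; Y-linked genes are carried by male mice only. The genotype-only log2 fold change was 0.38 (SE 0.31, unadjusted p = 0.261), and it was 0.06 without mutant replicate 1 and 0.74 without wild-type replicate 1.

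Neutrophil markers and immediate early genes were lowest in replicate 1 of both groups, where Tsc22d3 was highest. The 17 neutrophil markers summed to 256, 926 and 1233 FPKM in mutant libraries, against 109, 417 and 887 FPKM in wild-type libraries. The 18 immediate early genes summed to 210, 372 and 464 FPKM in mutant libraries, against 190, 251 and 281 FPKM in wild-type libraries. The sum of endothelial and stromal markers was also lowest there, at 41.1, 42.3 and 44.5 FPKM in mutant and 44.7, 51.9 and 48.1 FPKM in wild-type libraries. Not every marker in it did so: Pecam1 had 19.7, 14.7 and 11.8 FPKM in mutant libraries, with replicate 1 the highest. The 20 lymphoid markers summed highest in replicate 1 of both groups, at 115 FPKM in mutant and 126 FPKM in wild type. Most of that was Cd79b (47.1 and 42.1 FPKM) and Nkg7 (45.1 and 62.2 FPKM). The median deviation of lymphoid markers from their mean, in log2 CPM, was 0.13, 0.43 and 0.23 in mutant libraries. In wild-type libraries it was -0.13, 0.20 and -0.13. Erythroid and megakaryocyte sums were highest in replicate 1 of the mutant group but not of the wild-type group. Monocyte and macrophage markers summed lowest in replicate 1 of the mutant group but not of the wild-type group. The 17 genes of the HSC list summed highest in replicate 1 of both groups, at 2179 FPKM in mutant and 2020 FPKM in wild type. The part of any of these in the Tsc22d3 levels was not tested.

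Within that split the mutant values of Tsc22d3 were higher on each side. The library with Y-linked reads gave 351 FPKM in mutant and 277 FPKM in wild type, a ratio of 1.27, with no replicates. The libraries without such reads gave 212 and 177 FPKM in mutant and 150 and 141 FPKM in wild type, a ratio of means of 1.33. Tsc22d3 was the only 1 of the 10 genes whose groups did not overlap among those 4 libraries, where 30.3% of all genes tested did not. With a term for Y-linked reads its log2 fold change was 0.39 (SE 0.10) at an unadjusted p of 0.00516, where 4.51% of all genes were under 0.05. edgeR's adjusted p was then 0.833, where 0.0138% of all genes passed, and it was 0.733 or more in every alternative. Whether the split by Y-linked reads or another property of replicate 1 goes with the Tsc22d3 level cannot be told apart in these libraries.

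The members did not vary as 1 block across the libraries. Over their 45 pairs, the median Pearson r of log2 CPM across the 6 libraries was 0.34, with 3 pairs above 0.8 and 4 below -0.5; these values are descriptions, since the libraries share genotype and other differences. The most alike were Foxo1 and Btg1 (r = 0.91), Foxo4 and Sesn3 (0.87) and Pik3ip1 and Ccng2 (0.85). The most opposed were Foxo3 and Txnip (r = -0.85). The promoter windows of Btg1 and Txnip both hold the GTAAACA element, so the most alike and the most opposed pair each joined a factor with such a gene. Foxo1 and Txnip had an r of 0.71.

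**Figure D3:**
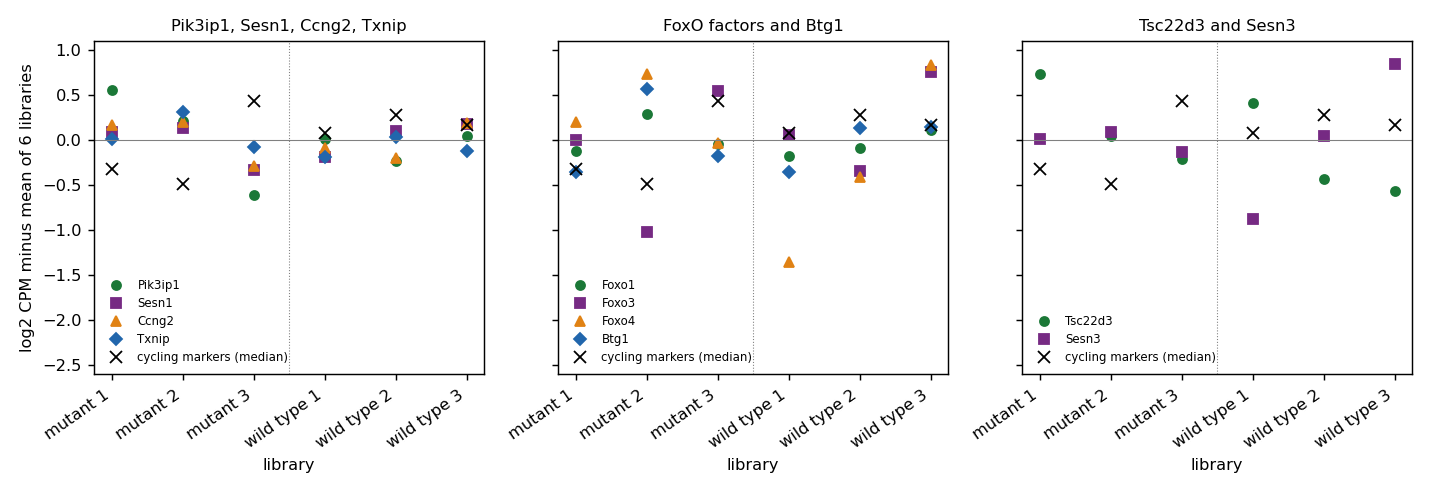
Deviation of each gene from its mean over the 6 libraries, in log2 CPM, for 3 sets of members, with the median of 16 markers of cycling cells as crosses; mutant libraries are left of the dotted line and wild-type libraries right of it. In mutant replicate 3 the crosses are at their highest (0.44) and Pik3ip1 (-0.61), Sesn1 (-0.33) and Ccng2 (-0.29) at their lowest, while Foxo3 is high there (0.55) and lowest in mutant replicate 2 (-1.02).

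Markers of cycling cells differed between libraries of the same group, and the members' values are given beside them. The 16 markers (Mki67, Top2a and Mcm genes among them) lay at a median of -0.32, -0.49 and 0.44 from their 6-library mean in mutant replicates 1, 2 and 3, against 0.08, 0.28 and 0.17 in wild-type replicates 1, 2 and 3. Across the 6 libraries r with that median was lowest for Pik3ip1 (-0.85) and Ccng2 (-0.79), followed by Txnip (-0.68), Tsc22d3 (-0.60) and Sesn1 (-0.54). It was -0.44 for Foxo1, -0.36 for Foxo4, -0.32 for Btg1, -0.02 for Sesn3 and 0.68 for Foxo3. Other lists gave r of similar size over the same 6 libraries. With the median of the HSC list r was 0.80 for Pik3ip1, 0.71 for Ccng2 and 0.68 for Tsc22d3. With that of the neutrophil markers it was 0.78 for Foxo4, 0.72 for Sesn3, 0.68 for Foxo1, 0.63 for Btg1 and -0.69 for Tsc22d3, and with that of the immediate early genes 0.64 for Foxo1. In RNA from a cell population, fewer cells of a type and less RNA per cell cannot be told apart. The part of cycling or other cells in the members' values was not tested.

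The label of the cells was checked against marker genes. The list used for HSCs holds 17 genes, of which Cd48 and Flt3 mark progenitors rather than long-term HSCs. All 17 passed the filter, with summed levels of 1719 to 2179 FPKM in mutant and 1724 to 2020 FPKM in wild-type libraries, Kit and Procr among them. Cd48 had 19.2, 7.17 and 9.43 FPKM in mutant libraries, against 17.8, 7.29 and 9.11 FPKM in wild-type libraries. Flt3 had 18.9, 10.7 and 12.5 FPKM in mutant libraries, against 23.6, 10.96 and 19.3 FPKM in wild-type libraries. Both progenitor markers were thus detected in every library and highest in replicate 1 of each group. The sum of the whole HSC list was also highest there, at 2179 FPKM in mutant and 2020 FPKM in wild type. All 16 cycling markers had lower means in mutant cells (median log2 fold change -0.28), with 0 past the threshold and 0 at an unadjusted p under 0.05. Lymphocytes also express Foxo1, Btg1 and Pik3ip1; of 20 lymphoid markers 10 passed the filter, Pax5, Cd8a and Ncr1 were at 0 in all libraries, and the sums were 106 to 115 FPKM in mutant and 99.5 to 126 FPKM in wild type. The part of lymphoid cells in the members' levels was not tested. Libraries held 22796771 to 26734561 counted reads in mutant and 23362286 to 25350325 in wild type, and no pair within a group agreed within sampling noise (chi-square per gene between 31.6 and 53.9).

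Of 163 further genes around FoxO, 155 were tested and 0 passed the adjusted threshold. Their values were higher for 87 and lower for 68, with a median log2 fold change of 0.03, and 10 of 155 had an unadjusted p under 0.05, against 3.99% of all genes tested. The lists share a few genes and were chosen with earlier results of these data known, so they get no test of their own.

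**Figure D4:**
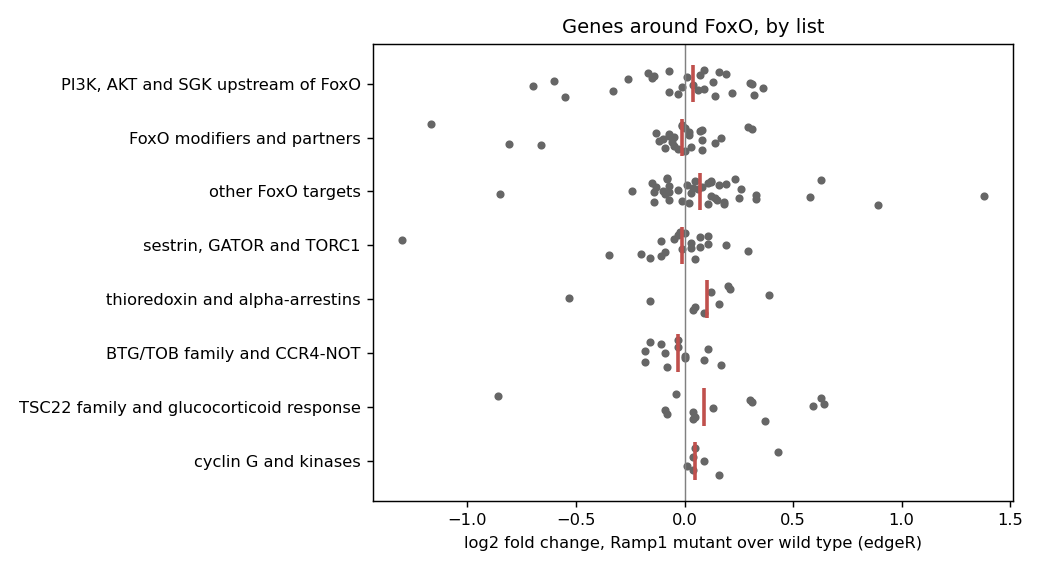
Log2 fold change, Ramp1 mutant over wild type, of each tested gene in 8 lists of genes around FoxO; each point is a gene and the red line is the list's median. The medians lie between -0.03 and 0.11, and the points of each list fall on both sides of 0 except in the list of cyclin G and kinases, where all 7 lie above 0.

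Ahead of FoxO, the 27 genes of PI3K, AKT and SGK signalling had 15 higher and 12 lower values (median log2 fold change 0.04). Akt1, a kinase that inactivates FoxO proteins, had 130, 73.8 and 62.5 FPKM in mutant libraries, against 156, 146 and 128 FPKM in wild-type libraries; the fitted difference was -0.70 on the log2 scale (SE 0.24), at an unadjusted p of 0.0215 and an edgeR adjusted p of 0.999. Mutant replicate 1 lay just above the lowest wild-type library, so the groups overlapped. Pik3ca, a catalytic subunit of PI3K, averaged 8.34 ± 2.37 FPKM in mutant and 12.2 ± 0.521 FPKM in wild-type cells (SD, n = 3 each), with groups that did not overlap and an edgeR adjusted p of 0.999. Sgk1 and Phlpp1, a phosphatase of AKT, had log2 fold changes of 0.30 and -0.60.

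Among 28 modifiers and partners of FoxO proteins, 13 had higher and 15 lower values (median -0.01). Foxk2, a forkhead protein, had 5.07, 3.35 and 2.60 FPKM in mutant libraries, against 9.68, 8.36 and 6.69 FPKM in wild-type libraries. The groups did not overlap, yet at -1.17 on the log2 scale (SE 0.25) the edgeR adjusted p was 0.755. Sirt1, which deacetylates FoxO proteins, averaged 6.93 ± 3.33 FPKM in mutant and 12.1 ± 0.613 FPKM in wild-type cells (SD, n = 3 each). Its groups did not overlap either, and its log2 fold change of -0.81 (SE 0.29) had an edgeR adjusted p of 0.999. Usp7, a deubiquitinase of FoxO4 in human cells, had a log2 fold change of -0.66 (SE 0.25, edgeR adjusted p = 0.999). It had 10.3, 11.5 and 8.86 FPKM in mutant libraries, against 23.4, 13.0 and 12.1 FPKM in wild-type libraries. The groups did not overlap, and 1 wild-type library, replicate 1, lay far above all others. Prkaa1, the catalytic subunit of AMPK, had a log2 fold change of 0.29. Mutant replicate 3 held the lowest value of Akt1, Pik3ca, Foxk2, Sirt1 and Usp7, and it also had the highest median of cycling markers (0.44). Mutant replicate 2 had the lowest median of cycling markers (-0.49), and there each of these genes was also below every wild-type library. The part of cycling cells in these values was not tested.

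Of 45 other genes reported as FoxO targets, 42 were tested, with 27 higher and 15 lower values (median 0.07) and 0 past the threshold. Bnip3, a mitophagy receptor, averaged 47.8 ± 2.81 FPKM in mutant and 39.9 ± 2.13 FPKM in wild-type cells, and Tnfsf10, the death ligand TRAIL, 16.9 ± 0.682 FPKM in mutant and 14.2 ± 0.844 FPKM in wild-type cells (SD, n = 3 each). Their groups did not overlap; the log2 fold changes were 0.26 and 0.25, and the edgeR adjusted p of each was 0.999. The cell cycle inhibitor gene Cdkn1a had 2.14, 2.25 and 8.12 FPKM in mutant libraries, against 3.45, 1.62 and 1.68 FPKM in wild-type libraries, so its log2 fold change of 0.89 (SE 0.58) came with 1 high mutant library. The BH3-only gene Bbc3 stood at 0.33 (SE 0.21).

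Relatives and partners of the target genes also had 0 past the threshold. In the list of sestrins, GATOR complexes and mTORC1 (9 higher, 12 lower, median -0.01), the log2 fold changes were -0.35 (SE 0.12) for Nprl3, a GATOR1 subunit, -0.20 for Mios, 0.19 for Gatsl2 (Castor2) and -0.11 for Rragc. In the list of thioredoxins and alpha-arrestins (8 higher and 2 lower of 10 tested, median 0.11), Arrdc3 had 0.39 (SE 0.19) and Arrdc2 -0.53 (SE 0.20), with Mlxip, an activator of Txnip, at 0.21 and Txnrd2 at 0.16. In the list of BTG/TOB proteins and CCR4-NOT subunits (4 higher and 9 lower of 13 tested, median -0.03), Tob1 and Cnot6 both had -0.18, Rqcd1 (Cnot9) -0.16 and Cnot8 -0.11. In the list of TSC22 proteins and glucocorticoid response genes (10 higher and 4 lower of 14 tested, median 0.09), Tsc22d1 averaged 40.7 ± 2.27 FPKM in mutant and 31.6 ± 4.72 FPKM in wild-type cells (SD, n = 3 each). The groups did not overlap, and its fitted difference was 0.37 on the log2 scale (SE 0.12). Zfp36 had 0.64, Dusp1 0.59 and Klf9 0.31. The list of cyclin G genes and their kinases and phosphatases had 7 of 7 values higher (median 0.05), the largest being 0.43 for Ppp2r5b (SE 0.30); Ccng1 had 0.16, Cdk5 0.09 and Ppp2r5c 0.05. All of these had an edgeR adjusted p of 0.999.

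The genes whose levels were most like those of the factors, among the 164 other members and listed genes tested, are given as a description over 6 libraries. For Foxo1 these were Tsc1 (Pearson r = 0.99), Txnrd1 (0.94) and Pik3cd (0.92). For Foxo3 they were Pik3r5 (0.95), Sod2 (0.81) and Arrdc1 (0.79). For Foxo4, with 5 to 29 reads per library, they included Sgk3 (0.91) and Sesn3 (0.87). Pik3r5, a regulatory subunit of PI3K gamma, had 3.11, 1.93 and 4.14 FPKM in mutant libraries, against 3.10, 3.27 and 5.20 FPKM in wild-type libraries, with its lowest value in mutant replicate 2 and its highest in wild-type replicate 3, as for Foxo3.

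In the authors' deposited table the members' log2 fold changes lay between -0.26 for Foxo3 and 0.41 for Foxo4, with an adjusted p of 0.9998 for each, where 0.231% of its genes with an adjusted p passed 0.05. That table rests on the same counts and is no independent support.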

How the data were processed

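RNA from sorted HSCs of 3 Ramp1 mutant and 3 wild-type libraries was grouped by the genotype in the titles. Per the submitters' processing notes, STAR, HTSeq 0.6.1, CASAVA and DESeq2 were used with build mm10, in no stated role or order; the annotation release and strand setting are not given in the sources used here. The authors deposited raw read counts per gene and FPKM per the file headers; the FPKM values equal the count divided by gene length and library total, checked on the values. Their deposited size-factor-scaled values (a signal) were not used; their deposited log2 fold changes and p-values are quoted as theirs. Read counts were tested with edgeR 4.0.16 in R 4.3.3 (TMM, filterByExpr, quasi-likelihood F test, group only, two-sided, Benjamini-Hochberg over all genes tested). Standard errors come from the fold change and its F statistic, and intervals are 95%. log2 CPM used a prior count of 2. The fit was tested on simulated data. Alternatives were DESeq2 1.42.0, limma 3.58.1 on voom values and on log2(FPKM + 1) or log2(FPKM + 0.1), other scalings and filters, a robust fit, each library left out, Y-linked reads (at least 100 per library) as a covariate or as a reason to leave libraries out, and a fit blocked on replicate number. The members and lists were chosen with earlier results of these data known. Named genes were all members, Foxo6, Ramp1, up to 4 genes of each list with the smallest unadjusted p among those averaging 1 FPKM, and the 3 genes most like each factor, of which 1 is not reported here. All 298 symbols in the lists were found, 5 of them by identifier. Promoters are RefSeq's.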

Additional observations from a re-analysis of the deposited data

How the results depend on the processing

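The count of members past the threshold was 0 under each of the 18 alternatives, and their median log2 fold change lay between 0.01 and 0.19, so it moved from 0.09 by less than its SD between replicates of 0.18. The number of all genes past the threshold was 3; DESeq2 gave 44, and leaving out 1 library gave 2 to 6, with 6 without mutant replicate 2. Of the members, Txnip (0.06 to 0.25) and Tsc22d3 (0.06 to 0.74) kept their sign in every alternative. The others changed sign without 1 library. The ranges over single libraries left out were -0.04 to 0.17 for Foxo1 (below 0 without mutant replicate 2), -0.66 to 0.11 for Foxo3 (above 0 without mutant replicate 2 or wild-type replicate 3) and -0.01 to 1.15 for Foxo4 (below 0 without wild-type replicate 1). They were -0.10 to 0.44 for Pik3ip1 (below 0 without mutant replicate 1), -0.16 to 0.07 for Sesn1 (above 0 without mutant replicate 3 or wild-type replicate 3) and -0.51 to 0.33 for Sesn3 (above 0 without wild-type replicate 3). They were -0.25 to 0.25 for Btg1 (below 0 without mutant replicate 2 or wild-type replicate 1) and -0.02 to 0.20 for Ccng2 (below 0 without mutant replicate 1 or 2 or wild-type replicate 2). Without both libraries with Y-linked reads Pik3ip1 was at -0.06 and Ccng2 at -0.03, and limma-voom put Sesn3 at 0.00; the cause was not tested.

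Same-numbered libraries were not paired by the labels, and their deviations from the group means correlated at 0.138, 0.00181 and -0.0940 for numbers 1, 2 and 3. With the replicate block 2 genes and 0 members passed, and mutant replicates 2 and 3 did not correlate best with their own number. Under the filter of at least 1 CPM in 3 libraries Foxo4 gave no value. Depth is lowest for Foxo4, with 5 to 29 reads per library and a counting error of 44.7% on the lowest.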

Other observations

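In log2 CPM, 2 of the 14 tested genes in the list of TSC22 proteins and glucocorticoid response were highest in replicate 1 of both groups, as Tsc22d3 was, 3 of 14 were lowest there, and the others were mixed. Of all genes tested, 13.9% were highest and 13.6% lowest in replicate 1 of both groups, so the list's counts are near the background. The genes named next were chosen after their values were seen. Ddit4, an inhibitor of mTORC1, had 6.48, 3.06 and 3.52 FPKM in mutant libraries, against 4.68, 1.79 and 1.90 FPKM in wild-type libraries. The clock gene Per1 had 4.25, 2.23 and 2.54 FPKM in mutant libraries, against 4.02, 2.06 and 2.13 FPKM in wild-type libraries. Replicate 1 was the highest library of each group for both genes, at 1.97 and 2.53 times the mean of the others for Ddit4 (mutant, then wild type) and at 1.78 and 1.92 times for Per1. Dusp1 and Zfp36, which are also immediate early genes, were lowest in replicate 1 of each group, at 0.473 and 0.640 times the others for Dusp1 and 0.561 and 0.555 times for Zfp36. Fkbp5 went both ways, at 0.779 times in mutant and 1.12 times in wild type.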
